A study of Rattus norvegicus and Mus musculus with 74 samples.

Results

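The 10 genes described here mark the oligodendrocyte lineage, 5 as lineage regulators or progenitor genes (Olig1, Olig2, Sox10, Pdgfra and Cspg4) and 5 as myelin genes (Mbp, Mog, Mag, Mobp and Cnp). They were chosen by name, and each was read from 1 region, the one naming that gene whose mean signal over all libraries was highest. All 10 were found among 20110 genes in the rat table and among 23362 in the mouse table. In rat, 22 of 72824 regions list one of them, and 9 distinct regions stand for the 10 genes, since Olig1 and Olig2 share 1 region and carry identical values. In mouse, 14 of 60110 regions list one, and each gene has a region of its own.

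The libraries came from ChIP-seq of brain cortex, with 4 histone marks: H3K4me3 and H3K9Ac, found at active promoters, H3K27me3, deposited by Polycomb, and H3K9me3, found in heterochromatin. Rats were Sprague-Dawley and mice C57BL/6J. The rat groups were healthy controls on vehicle, offspring of a prenatal valproate (VPA) injection on vehicle, and VPA offspring given TAK-418, which inhibits LSD1, a demethylase of histone H3. The mouse groups were healthy controls on vehicle, offspring of a prenatal injection of poly I:C (a double-stranded RNA analogue that mimics viral infection) on vehicle, and such offspring on TAK-418. Each group had 3 libraries per mark (72 ChIP libraries among 74 samples). The labels used here carry no age, dose or sex. Nothing in the labels says that each library is a different animal. The p-values therefore reflect the spread among these samples alone, and that spread may be technical.

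Oligodendrocytes arise from progenitor cells that carry the receptor tyrosine kinase PDGFRA and the proteoglycan NG2, the product of Cspg4. The basic helix-loop-helix factors OLIG1 and OLIG2 and the HMG-box factor SOX10 direct this lineage, and SOX10 binds and activates myelin genes as the cells mature. Myelin basic protein (Mbp) compacts the sheath, MOG lies on its outer face, MAG lies next to the axon, MOBP is a further structural protein and CNP is an enzyme of the cytoplasmic channels of myelin. Polycomb complexes are known to cover developmental regulators in cells that do not use them.

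Promoter sequences are shown for 4 genes, 2 lineage regulators high in the Polycomb mark and 2 myelin genes whose regions differ in it. The rat region read for Mobp does not cover its start, so its level must not be read as that of the promoter shown. They are RefSeq sequences on the rat assembly GRCr8, from 250 bases before to 50 after the annotated start, written 5′ to 3′ on the gene's strand. The assembly is not the one of the signal tables (rn5), so the coordinates of the sequences and of the regions must not be compared. Of the 10 genes, 7 have an entry in the promoter table. Olig1, Sox10 and Mog have none there. Capitals mark ACAAAG or its reverse complement CTTTGT, the core recognised by HMG-box factors of the SOX family, a motif picked after the sequences had been seen.

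Olig2: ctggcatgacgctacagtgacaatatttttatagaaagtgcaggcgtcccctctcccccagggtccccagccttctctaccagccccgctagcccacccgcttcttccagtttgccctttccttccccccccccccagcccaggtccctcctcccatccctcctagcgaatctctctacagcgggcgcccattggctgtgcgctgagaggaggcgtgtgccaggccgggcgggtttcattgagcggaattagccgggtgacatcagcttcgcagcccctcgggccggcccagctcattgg

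Pdgfra: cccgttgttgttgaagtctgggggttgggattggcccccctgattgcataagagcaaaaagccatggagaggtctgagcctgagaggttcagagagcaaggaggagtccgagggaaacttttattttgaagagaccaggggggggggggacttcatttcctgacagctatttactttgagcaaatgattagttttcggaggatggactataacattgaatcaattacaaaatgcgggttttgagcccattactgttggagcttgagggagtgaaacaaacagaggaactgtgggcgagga

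Mag: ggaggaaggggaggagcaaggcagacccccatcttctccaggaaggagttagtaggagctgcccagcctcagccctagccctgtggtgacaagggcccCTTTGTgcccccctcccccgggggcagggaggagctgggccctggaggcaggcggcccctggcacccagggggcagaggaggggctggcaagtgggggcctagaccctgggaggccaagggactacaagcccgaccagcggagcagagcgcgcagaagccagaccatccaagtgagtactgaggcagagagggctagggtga

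Mobp: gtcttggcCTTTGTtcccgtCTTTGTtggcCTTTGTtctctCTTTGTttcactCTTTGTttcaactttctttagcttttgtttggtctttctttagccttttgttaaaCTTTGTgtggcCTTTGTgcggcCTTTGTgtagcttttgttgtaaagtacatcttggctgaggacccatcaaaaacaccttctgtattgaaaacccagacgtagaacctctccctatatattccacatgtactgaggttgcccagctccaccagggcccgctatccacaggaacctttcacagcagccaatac

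The Olig2 sequence lies at chr11:43961335-43961634 on the plus strand and the Pdgfra sequence at chr14:33408467-33408766 on the minus strand. The Mag sequence lies at chr1:95290995-95291294 on the minus strand and the Mobp sequence at chr8:128746982-128747281 on the plus strand. The core, searched on both strands, occurs 8 times in the Mobp promoter, once in that of Mag and not at all in those of Olig2 and Pdgfra. Among all 33469 promoters of 300 bases in the table, 18.8% hold at least 1 copy and 3 promoters hold 8 or more. The Olig2 promoter has 16 CG dinucleotides, against 6 in Mag, 5 in Pdgfra and 4 in Mobp, where the median over all promoters is 7. Of the promoters not shown, that of the myelin gene Cnp has 24 and that of Cspg4 has 18. The Mbp promoter was left out of these counts. A match is a description of these letters and not a bound site.

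The deposited mean signal is an average over a whole merged region, so a narrow peak gives a lower mean in a wide region. Levels and ranks of different genes therefore also depend on the width of their regions. A wide region can also hold more than 1 gene's start. The rat region of Olig1 and Olig2 (chr11:34974800-35118599, rn5) spans 143.8 kb. The rat region of Mag spans 110.8 kb and lists 8 other genes. The regions of Sox10 also list Polr2f, a subunit shared by RNA polymerases, in both species. The region covers the gene's own start for 8 of 10 genes in rat, with Mobp and Mog as the exceptions, and for 7 of 10 in mouse, with Cspg4, Mbp and Mog as the exceptions. The rat region of Mobp is listed at 15994 bp upstream of its start and also lists Rpsa and Slc25a38. The rat region of Mog (chr20:4035600-4043199, rn5) spans 7.6 kb and is listed at 5278 bp upstream.

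The tissue was checked by lists of up to 8 marker genes. In rat controls the median excitatory neuron marker stood at percentile 66.1 ± 1.39 of H3K9Ac (SD, n = 3) among all genes, and the median gene of other organs at 24.1 ± 1.62. The other rat lists, of inhibitory neurons, astrocytes, microglia and endothelial cells, stood between 30.6 and 44.9, all above the genes of other organs. In mouse controls excitatory neuron markers stood at 53.1 ± 1.53 and genes of other organs at 41.6 ± 2.78. Mouse astrocyte (38.6), microglia (33.1), inhibitory neuron (29.1) and endothelial markers (29.0) all stood below the genes of other organs, so of these 5 brain lists only that of excitatory neurons stood above other organs in mouse. No marker of any list was at 0 in all 9 libraries of a mark. In whole tissue, fewer cells of a type and less signal per cell cannot be told apart.

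The lineage regulators carried high H3K27me3 in control cortex of both species, and most myelin genes carried less. Percentiles are the rank of a gene's mean signal among all genes of the same library. The median regulator stood at percentile 96.2 ± 0.592 in rat controls and at 96.6 ± 0.387 in mouse controls (SD, n = 3). In rat, Olig1 and Olig2 share a region, which enters every regulator median under both names, and this H3K27me3 median is its value. The median myelin gene stood at 53.4 ± 6.78 in rat and at 72.9 ± 1.97 in mouse. High ranks were not particular to these regulators. Inhibitory neuron markers stood at 98.2 in rat and 96.8 in mouse controls, and excitatory neuron markers at 92.3 and 96.8. Astrocyte, microglia and endothelial markers stood between 74.2 and 85.4, and genes of other organs at 79.4 and 89.2. A wider list of other progenitor genes stood at 81.9 and 88.1, and one of other myelin genes at 68.4 and 69.0. These are descriptions of levels, with no test between the lists.

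**Figure D1:**
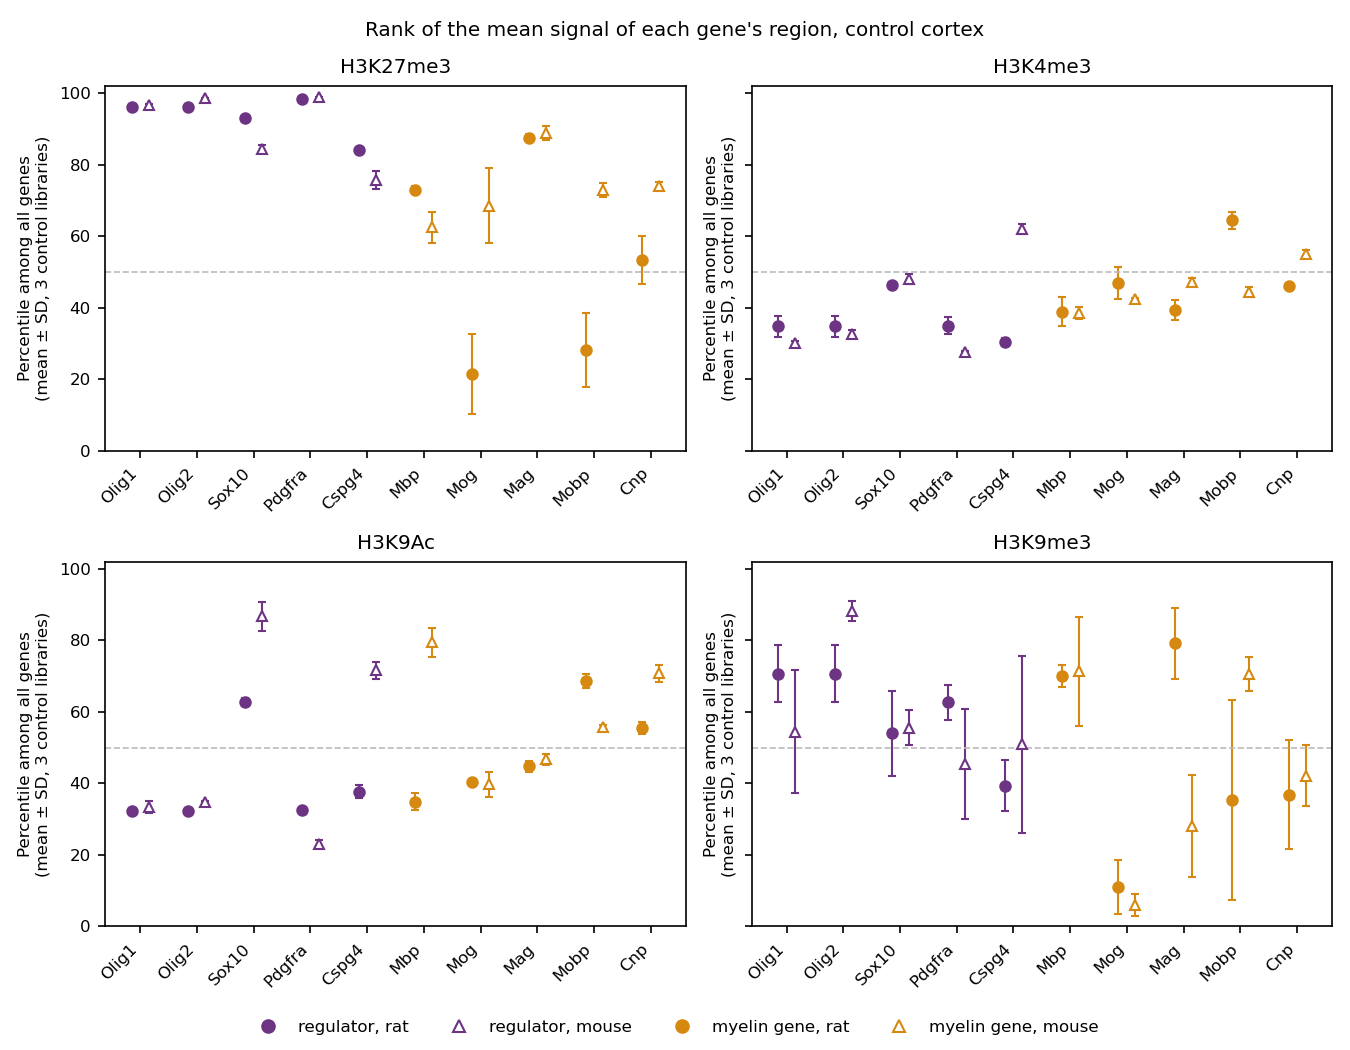
Percentile of each gene's mean signal among all genes (vertical axis, 0 to 100, mean ± SD of 3 control libraries) for 4 marks, with regulators in purple and myelin genes in orange, rat as filled circles and mouse as open triangles. For H3K27me3 the 5 rat regulators lie between 84.1 and 98.3, while the rat myelin genes spread from 21.4 to 87.4.

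Pdgfra, the receptor that keeps progenitors dividing, had the highest H3K27me3 level of the 10 genes in both species. In rat its mean signal was 16.8, 21.7 and 8.39 in the 3 control libraries, 14.2, 21.0 and 12.5 on VPA with vehicle, and 25.7, 11.8 and 12.5 on VPA with TAK-418. In mouse it was 8.04, 12.5 and 12.4 in controls, 20.4, 13.8 and 4.70 on poly I:C with vehicle, and 5.83, 6.92 and 7.81 on poly I:C with TAK-418. The 3 rat groups overlapped, and in mouse the TAK-418 libraries all lay below the controls but not below all vehicle libraries, which spread the most. The control level stood at percentile 98.3 ± 0.0311 in rat and 98.8 ± 0.0576 in mouse.

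Olig2, required for the formation of progenitors, followed. Its rat region gave 11.8, 13.8 and 5.99 in controls, 10.7, 15.1 and 9.34 on VPA with vehicle and 19.3, 9.09 and 9.07 on VPA with TAK-418. Its mouse region gave 7.61, 11.7 and 12.0 in controls, 18.6, 12.4 and 4.45 on poly I:C with vehicle and 5.41, 6.93 and 7.42 on poly I:C with TAK-418. Control percentiles were 96.2 ± 0.592 in rat and 98.7 ± 0.0565 in mouse. Sox10 stood at 93.1 ± 0.637 in rat and 84.4 ± 1.24 in mouse, and Cspg4 at 84.1 ± 0.349 and 75.7 ± 2.46.

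Among the myelin genes, Mag was the one with H3K27me3 within the range of the regulators in rat. Its control percentile was 87.4 ± 1.09 in rat and 88.9 ± 1.97 in mouse, above Cspg4 in both species. Mog stood lowest in rat, with control values of 1.32, 1.38 and 1.33 and percentile 21.4 ± 11.2. Mobp in rat stood at 28.3 ± 10.3, within the spread of Mog. That Mobp region does not cover the gene's start, had a control mean of 1.59, and had an interval called in 0 of 9 libraries. The region covering the Mobp start had a control mean of 2.77, with an interval called in 8 of 9. In mouse, Cspg4, Cnp (74.1 ± 1.06), Mobp (72.9 ± 1.97), Mog (68.6 ± 10.4) and Mbp (62.5 ± 4.24) formed a run in which neighbours differed by less than the larger of their SDs. With the region covering the gene start in place of the highest one, chosen after seeing the data, the medians were 96.7 for regulators and 61.5 for myelin genes in rat, and 97.0 and 72.3 in mouse.

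**Figure D2:**
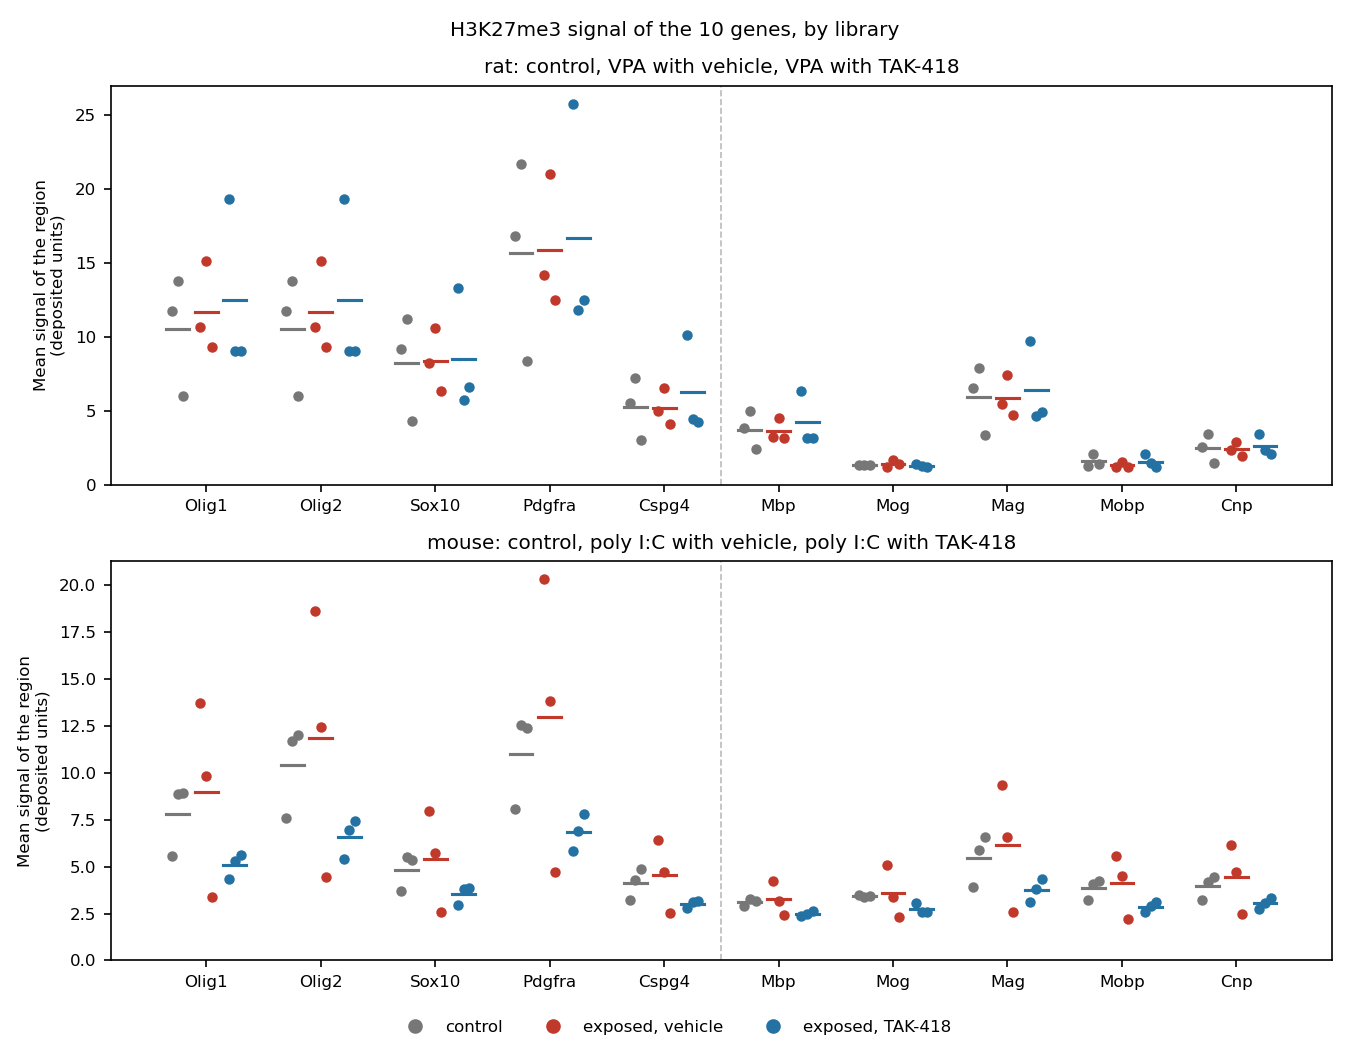
H3K27me3 mean signal of each gene's region (vertical axis, deposited units, from 0), 1 point per library and a bar at the group mean, for rat above and mouse below. Pdgfra and Olig2 stand highest in both species, and the mouse vehicle libraries of Pdgfra spread from 4.70 to 20.4.

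An H3K27me3 interval was called by the authors in all 9 rat libraries for 5 of 5 regulators and for 2 of 5 myelin genes, Mbp and Mag. In mouse it was called in all 9 for 4 of 5 regulators, all but Cspg4, and for 1 of 5 myelin genes, Cnp. Across all genes this held for 28.4% in rat and 14.7% in mouse. H3K4me3 intervals were called in all 9 libraries for all 10 genes in both species, against 72.8% of all genes in rat and 71.3% in mouse. The 2 marks were thus called in the same region throughout for 5 rat and 4 mouse regulators, where 23.0% and 11.8% of all genes had both. Among myelin genes this held for 2 in rat and 1 in mouse. Olig1 and Olig2 share 1 rat region. A call can lie anywhere in a wide merged region, so the 2 marks need not lie at the same place. Whether both marks lie in the same cells cannot be told apart in whole cortex.

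The 2 active marks ranked lower than H3K27me3 for the median regulator. It stood at percentile 34.8 ± 2.93 of H3K4me3 in rat controls and 32.7 ± 1.21 in mouse, and the median myelin gene at 45.2 ± 1.64 and 44.5 ± 1.37. For H3K9Ac the medians were 32.6 ± 0.495 and 35.0 ± 0.182 for regulators and 44.8 ± 1.54 and 55.7 ± 0.779 for myelin genes. With the region covering the gene start, rat H3K4me3 medians were 40.0 for regulators and 44.6 for myelin genes. Their control libraries then overlapped, at 38.0 to 43.4 and 42.4 to 47.8. In mouse these H3K4me3 medians were 34.2 and 51.2. For H3K9Ac they were 37.8 and 45.5 in rat, and 38.9 and 60.4 in mouse. Sox10 was the regulator with the most H3K9Ac, at percentile 62.7 ± 1.17 in rat and 86.6 ± 4.11 in mouse. The mean and the highest signal of a region can rank differently. In the rat region of Mag, a myelin gene, the highest H3K4me3 signal stood at percentile 95.1, while the mean stood at 39.4. That region lists 8 other genes, so the highest signal need not be at Mag. Whether averaging over wide regions plays a part in the regulators' ranks was not tested.

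In rat, H3K9Ac rose in VPA offspring on vehicle against controls at 9 of the 10 genes, all but Mog, in a comparison in which 96.5% of 15368 tested genes were called by limma. The members' median change was 0.89 on the log2(signal + 1) scale, where the median of all tested genes was 0.88. A count of 9 in 10 is thus near the background and is not a result about the lineage. The 5 regulators had a median change of 0.68 and the 5 myelin genes one of 0.92. Olig1 and Olig2 are 1 region with a change of 0.64, which enters the regulator median under both names and lowers it.

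Sox10 changed the most. Its H3K9Ac signal was 7.59, 6.32 and 6.45 in controls, 18.0, 20.9 and 9.34 on VPA with vehicle, and 10.5, 11.7 and 8.21 on VPA with TAK-418. All vehicle libraries lay above all controls, and vehicle 3 lay within the range of the TAK-418 libraries. The change against control was 1.07 ± 0.26 (SE; adjusted p = 0.000366, limma, Benjamini-Hochberg over all genes).

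Olig1 and Olig2, read as 1 region, gave 3.74, 3.17 and 3.40 in controls, 6.52, 7.30 and 4.26 on VPA with vehicle and 4.08, 4.89 and 3.55 on VPA with TAK-418. The vehicle libraries lay above the controls without overlap, and the change of 0.64 ± 0.23 (adjusted p = 0.00641, limma) was the smallest among the genes called. Pdgfra rose by 0.68 ± 0.23 (adjusted p = 0.00426) and Cspg4 by 0.92 ± 0.25 (adjusted p = 0.000620). The myelin genes Mbp, Mag, Mobp and Cnp rose by 0.86 to 0.95, with adjusted p between 0.000609 and 0.00107.

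Mog gave 4.95, 4.20 and 4.30 in controls, 7.27, 7.79 and 4.84 on VPA with vehicle, and 6.17, 6.06 and 5.57 on VPA with TAK-418. Its vehicle 3 library lay inside the control range, so these groups overlapped, while the TAK-418 libraries all lay above the controls. The change against control was 0.46 ± 0.24 (adjusted p = 0.0634, limma). With the region covering its start the change was 0.59 (adjusted p = 0.0174). Over the members, the vehicle libraries lay above all controls at 9 of 10 genes, against 94.3% of all tested genes.

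**Figure D3:**
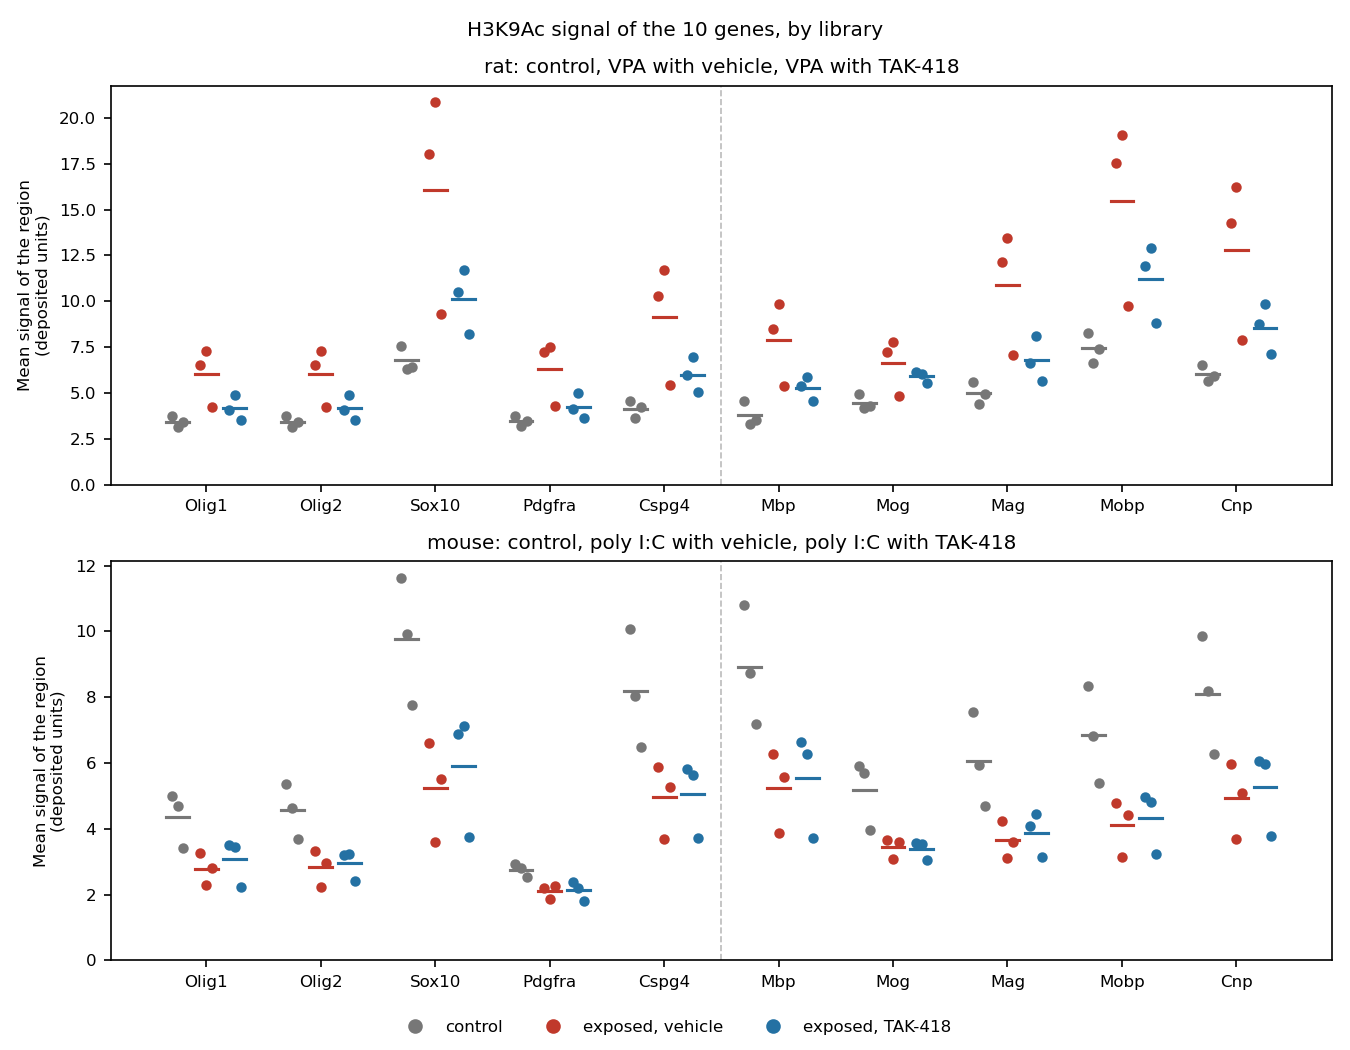
H3K9Ac mean signal of each gene's region (vertical axis, deposited units, from 0), 1 point per library and a bar at the group mean, for rat above and mouse below. Rat vehicle libraries stand above the controls at 9 of 10 genes, Mog being the exception, and mouse vehicle libraries stand below the controls at 10 of 10.

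The libraries differed as a whole in the same direction. The H3K9Ac mean signal summed over all regions of the table was 163762 to 183664 in rat controls and 211103 to 349291 on VPA with vehicle. Summed signals of marker lists moved with it: excitatory neuron markers gave 55.1 to 67.3 in controls and 81.5 to 148.9 on vehicle, astrocyte markers 36.3 to 41.2 and 47.2 to 85.5, and microglia markers 26.5 to 31.7 and 37.7 to 73.7. Their part in the result was not tested.

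After each library's median was subtracted, no rat gene of the 10 was called higher in H3K9Ac on vehicle, and 4 were called lower against control: Olig1 and Olig2 (a difference of -0.22, adjusted p = 0.0302), Pdgfra (-0.18, adjusted p = 0.0493) and Mog (-0.40 ± 0.08, SE, adjusted p = 0.0126). Lower calls made up 10.6% of all tested genes under this scaling. Sox10 stayed on the higher side, by 0.21 ± 0.08 (adjusted p = 0.0604). In the same scaling Mog was the 1 gene of the 10 called between the VPA groups, at 0.39 ± 0.08 higher on TAK-418 than on vehicle (adjusted p = 0.00855), where 9.21% of all genes were called higher. Under quantile normalization 0 of the 10 passed in either comparison, with Mog at -0.28 (adjusted p = 0.0700) and 0.26 (adjusted p = 0.0540). The region read for Mog does not cover its start, and neither rescaling was run on the region that does.

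**Figure D4:**
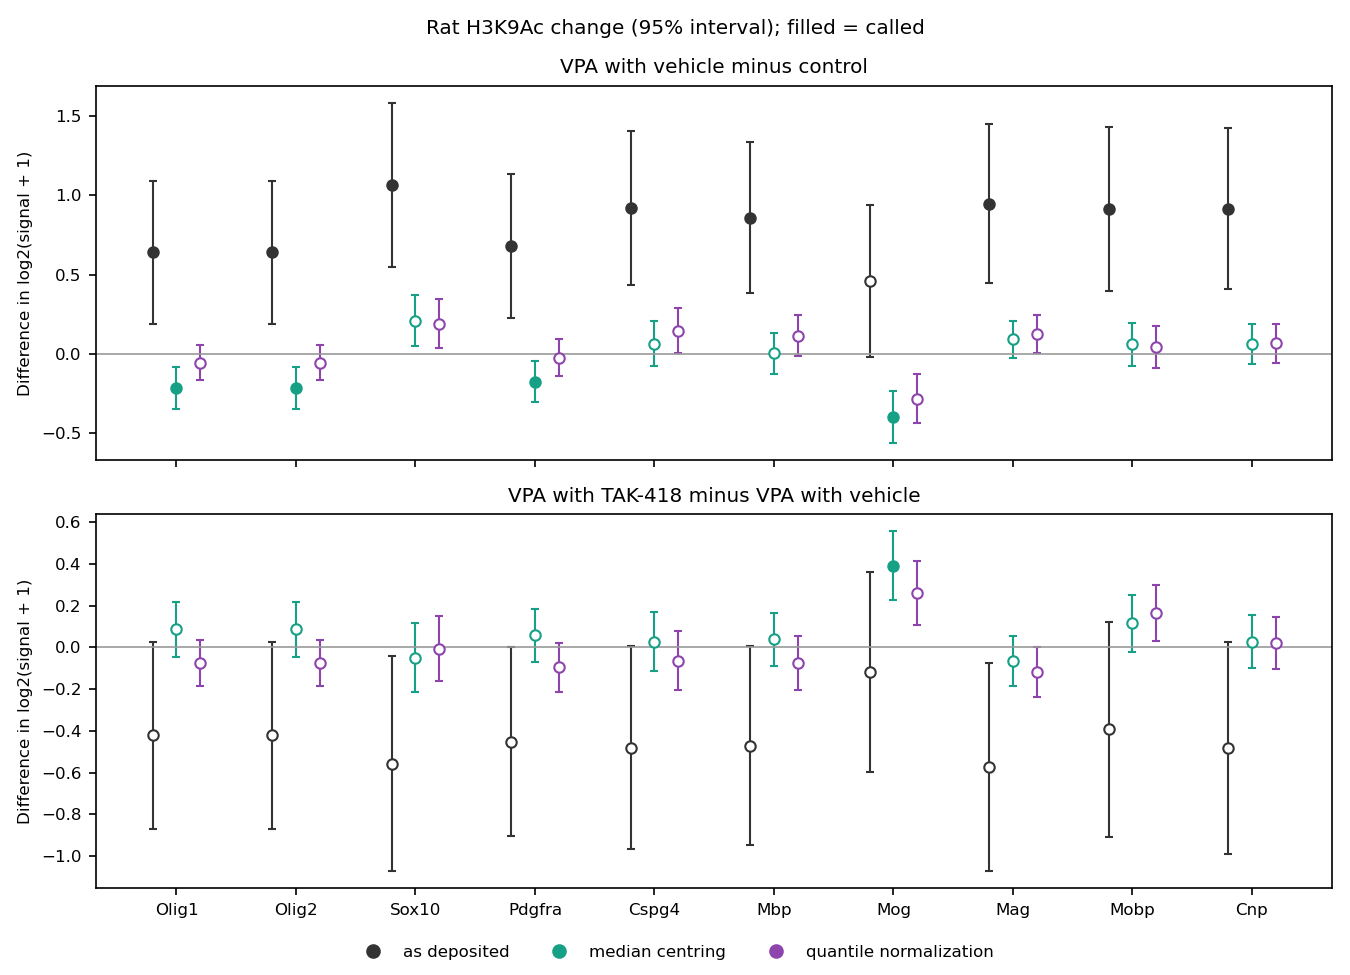
Difference in log2(signal + 1) of rat H3K9Ac (vertical axis, with 95% interval) for the 10 genes under 3 scalings, VPA with vehicle minus control above and TAK-418 minus vehicle below, filled where called. As deposited, all 10 differences against control lie between 0.46 and 1.07, while after median centring they lie between -0.40 and 0.21.

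As deposited, TAK-418 against vehicle in VPA rats gave lower H3K9Ac values at all 10 genes, with differences from -0.12 for Mog to -0.57 for Mag, and 0 calls by limma (adjusted p 0.0710 to 0.646, 2 genes with an unadjusted p under 0.05). Of all tested genes 10.5% were called. Leaving out vehicle 3 changed this: 9 of the 10 were then called, as were 96.6% of all tested genes. Against control, the TAK-418 group gave 0 calls among members and 0% among all genes, with 1 member at an unadjusted p under 0.05. Its libraries lay above all controls at 7 of 10 members, against 51.8% of all tested genes. Without vehicle 3, which changes only the pooled spread here, 7 members and 56.1% of all tested genes were called.

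In mouse, H3K9Ac fell on poly I:C with vehicle against controls at 9 of the 10 genes, all but Pdgfra, in a comparison in which 67.2% of 16663 tested genes were called. The members' median change was -0.60, against -0.56 over all tested genes. Sox10 changed the most here too. Its signal was 11.6, 9.92 and 7.77 in controls, 6.62, 3.59 and 5.51 on poly I:C with vehicle, and 6.89, 7.12 and 3.75 on poly I:C with TAK-418. Both exposed groups lay wholly below the controls, and they overlapped each other. The change was -0.80 ± 0.26 on vehicle (SE; adjusted p = 0.0290, limma).

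Pdgfra, with the lowest H3K9Ac of the 10 genes in mouse, gave 2.92, 2.82 and 2.55 in controls, 2.21, 1.86 and 2.26 on vehicle and 2.39, 2.22 and 1.82 on TAK-418. Its change was -0.27 ± 0.14 (adjusted p = 0.0608), although its groups did not overlap. The other 8 genes fell by between 0.46, for Mog, and 0.67, for Mbp. Vehicle libraries lay below all controls at 10 of 10 members, against 75.8% of all tested genes. Summed excitatory neuron markers were 37.9 to 61.2 in controls and 23.3 to 35.3 on vehicle, and their part in the result was not tested. The call rests on single libraries: leaving out control 1, control 2, vehicle 2 or vehicle 3 left 0 of the 10 called, and median centring or quantile normalization also left 0. In each of these fits 0% of all tested genes were called.

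TAK-418 against vehicle in poly I:C mice gave H3K9Ac differences from -0.02 to 0.14 at the 10 genes, with 0 called by limma, 0 at an unadjusted p under 0.05, and 0% of all genes called. Against control, TAK-418 gave a median of -0.53, as over all genes (-0.53), and 0 calls, although 9 members had an unadjusted p under 0.05 (adjusted p over the 10 genes 0.0522 to 0.0681). Its libraries lay below all controls at 9 of 10 members, all but Olig1, against 75.4% of all tested genes. Without control 3 the count of members called was 10, with 96.9% of all tested genes called, and without vehicle 2 it was 9, with 70.8%.

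For H3K4me3 in rat, 8 of the 10 genes rose on VPA with TAK-418 against controls, all but Mog and Mobp, where 85.8% of 15287 tested genes were called. The members' median was 0.58, against 0.61 over all tested genes. Pdgfra changed the most, with 4.22, 8.02 and 5.71 in controls, 8.45, 9.00 and 8.15 on vehicle and 11.7, 7.88 and 11.2 on TAK-418. Its second TAK-418 library lay inside the control range. The change against control was 0.71 ± 0.20 (SE; adjusted p = 0.00259, limma).

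Sox10 rose by 0.68 ± 0.21 (adjusted p = 0.00413) and Cnp by 0.63 ± 0.21 (adjusted p = 0.00636), the 2 genes at which TAK-418 and control libraries did not overlap, against 57.6% of all tested genes. Mog gave 8.46, 9.59 and 10.3 in controls and 8.81, 9.54 and 15.8 on TAK-418, a difference of 0.21 ± 0.20 (adjusted p = 0.319), and only TAK-418 3 lay above the controls. With the region covering its start, Mog differed by 0.64 (adjusted p = 0.00495). Leaving out control 1 gave 4 members called (35.8% of all tested genes), control 3 gave 5 (64.4%), TAK-418 1 gave 2 (23.3%) and TAK-418 3 gave 5 (42.2%). Both rescalings gave 0 members and 0% of all genes.

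VPA with vehicle against control gave 0 H3K4me3 calls among the members, with 7 at an unadjusted p under 0.05 and a median of 0.46, against 0.41 over all tested genes, of which 1.64% were called. Groups did not overlap at Sox10, Pdgfra, Mag and Cnp, with vehicle higher, against 63.3% of all tested genes. Without control 2 or without TAK-418 2, 8 members were called, with 54.7% and 53.8% of all tested genes. TAK-418 against vehicle gave 0 calls, 0 unadjusted p under 0.05 and a median of 0.16, against 0.21 over all genes, of which 0.137% were called.

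In mouse no H3K4me3 comparison called a member. Poly I:C with vehicle against control had a median of -0.47 (all tested genes -0.49, 0% called), with 5 members at an unadjusted p under 0.05. Groups did not overlap at 5 of 10 members, namely Olig1, Pdgfra, Mag, Mobp and Cnp, with vehicle lower, against 58.7% of all tested genes. The first control library stood high, with Sox10 at 11.8 against 6.46 and 5.94 in the other controls. Without control 3, 9 members and 74.3% of all tested genes were called. TAK-418 against vehicle gave a median of 0.14 (0% of all genes called) and TAK-418 against control one of -0.30 (0.00573% called), with 0 members at an unadjusted p under 0.05 in either.

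H3K27me3 was tested at 8 members in each species, those with an interval in at least 3 of 9 libraries (not Mog or Mobp in rat, not Mog or Mbp in mouse). No comparison called a member by limma, none had an unadjusted p under 0.05, and 0% of all tested genes were called in all 6. In rat the differences against control lay between -0.004 and 0.21 in both exposed groups. In mouse, TAK-418 gave lower values than control at all 8, with a median of -0.39 (all tested genes -0.40), and non-overlapping libraries at Olig2, Pdgfra, Cspg4 and Mobp, against 60.7% of all tested genes. TAK-418 against poly I:C with vehicle had a median of -0.44, and without vehicle 3, the lowest of its group, all 8 were called, as were 100% of all tested genes.

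The gap between the lists overlapped between all groups of a species. The regulators' median log2 H3K27me3 exceeded that of the myelin genes by 1.69 ± 0.19 in rat controls, 1.88 ± 0.14 on VPA with vehicle and 1.82 ± 0.32 on VPA with TAK-418 (SD, n = 3). In mouse the gap was 0.84 ± 0.18, 0.83 ± 0.43 and 0.63 ± 0.10 in the same order of groups. The regulators' median percentile stayed between 95.5 and 97.3 in all 9 rat libraries.

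H3K9me3 intervals were called in all 9 rat libraries for Olig1 and Olig2, which share a region, and for no other member, against 7.59% of all rat genes. In mouse they were so called for 0 of 10 members, against 0.372% of all genes. Over the whole mouse table only 446 intervals were called in vehicle 1, 251 in vehicle 2 and 284 in TAK-418 2, against 32258 in control 1. A call in all 9 mouse libraries was therefore hardly possible for any gene, and the species cannot be compared by this count. The median regulator stood at control percentile 65.1 ± 3.12 in rat and 52.4 ± 14.9 in mouse, and the median myelin gene at 50.4 ± 19.3 and 42.2 ± 8.56. With an interval in at least 3 libraries, 4 genes in rat (Olig1, Olig2, Mbp and Mag) and 1 in mouse (Olig2) were tested. Mbp gave 1.78, 1.94 and 1.94 in rat controls, 2.41, 2.89 and 2.29 on VPA with vehicle and 3.25, 2.45 and 2.37 on VPA with TAK-418, so that both exposed groups lay above the controls. Mbp rose on TAK-418 against control by 0.35 ± 0.13 (adjusted p = 0.0483), the 1 member called, where 18.1% of 4986 tested genes were called. Each library left out except TAK-418 3 ended this call, and without TAK-418 3 all 4 members and 75.2% of all tested genes were called. On vehicle against control 0 of 4 were called (3 at an unadjusted p under 0.05), against 45.6% of all tested genes, although libraries did not overlap at any of the 4, as at 86.0% of tested genes. Without TAK-418 1 or TAK-418 3, all 4 were called on vehicle, with 85% and 74.1% of all tested genes. TAK-418 against vehicle in rat called 0 (0 with an unadjusted p under 0.05, and 0% of all genes).

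Olig2 in mouse gave H3K9me3 values of 4.38, 2.53 and 2.30 in controls, 1.79, 1.58 and 3.62 on poly I:C with vehicle and 3.59, 1.51 and 2.73 on TAK-418. The groups overlapped, and the 3 comparisons had adjusted p of 0.628, 0.999 and 0.787, with 0% of all genes called in each.

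Other genes of the lineage were read from a progenitor list of 16 and a myelin list of 24, of which 15 and 22 were found in rat and all in mouse. In rat H3K9Ac on VPA with vehicle against control, 13 of 13 tested progenitor genes and 16 of 19 myelin genes rose, against 96.5% of all tested genes called. Sox8, a relative of Sox10, went from 14.1 ± 2.24 in controls to 32.2 ± 10.6 (SD, n = 3), a change of 1.09 ± 0.27 (adjusted p = 0.000357). Vcan, a proteoglycan of the extracellular matrix, rose by 1.04 and S1pr5, a sphingosine phosphate receptor of oligodendrocytes, by 1.00. The list medians were 0.83 and 0.72, against 0.88 over all genes. After median centring 1 progenitor gene was called higher and 3 lower, and 0 myelin genes higher and 6 lower. Under that scaling 10.6% of all tested genes were called lower and 22.5% in either direction. Quantile normalization gave 0 progenitor genes and 1 myelin gene called, the latter lower, with 0.735% of all tested genes called. Most of the calls made as deposited were thus lost or turned.

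TAK-418 against vehicle lowered rat H3K9Ac at 2 of 19 other myelin genes and at 0 of 13 other progenitor genes, against 10.5% of all tested genes called. Ugt8, which makes the galactolipid of myelin, went from 11.3 ± 3.05 to 6.24 ± 1.16, a change of -0.75 ± 0.26 (adjusted p = 0.0459), and S1pr5 from 16.3 ± 4.61 to 9.23 ± 1.96, a change of -0.74 ± 0.26 (adjusted p = 0.0496). After median centring 7 of the 19 myelin genes were called higher and 2 lower, and the list's median turned from -0.38 to 0.13. Under that scaling 9.21% of all tested genes were called higher and 17.4% in either direction. Quantile normalization gave 2 myelin genes higher and 1 lower, with 4.81% of all tested genes called. For rat H3K4me3 on TAK-418 against control, 13 of 13 progenitor genes and 18 of 20 myelin genes rose, against 85.8% of all tested genes, led by Lhfpl3 (1.06), Vcan (0.98) and Sox9 (0.92), the last also an astrocyte gene. Both rescalings left 0 of either list called. In rat H3K9me3 on vehicle against control, 2 of 6 progenitor and 3 of 7 myelin genes rose, among them Zfp488 (0.40), Cdh19 (0.48) and Klk6 (0.37), against 45.6% of all tested genes. On TAK-418 against control, 2 of 7 myelin genes, Klk6 (0.48) and Tspan2 (0.28), and 0 of 6 progenitor genes were called, against 18.1%. Both rescalings left 0 of either list called in these H3K9me3 comparisons.

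In mouse, H3K9Ac fell on poly I:C with vehicle at 11 of 14 progenitor genes and 19 of 21 myelin genes, against 67.2% of all tested genes called. Both rescalings left 0 of either list called. Nfasc, an adhesion molecule of the node of Ranvier and its flanks, went from 10.4 ± 2.41 to 5.59 ± 1.70, a change of -0.80 ± 0.27 (adjusted p = 0.0290). Myrf, a transcription factor of myelination, changed by -0.75 and Sox8 by -0.76. As deposited, no other mouse comparison called a gene of either list by limma. The smallest unadjusted p in H3K4me3 on vehicle against control was that of Apod, at -0.66 (adjusted p = 0.110, limma), and in H3K9Ac on TAK-418 against control that of Ermn, at -0.67 (adjusted p = 0.0522, limma).

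Genes with the pattern most like Olig2 and Mog were found by Euclidean distance over 12 means of log2(signal + 1), 4 marks by 3 groups. Nearest to Olig2 in rat were Zdhhc7 (distance 0.42), Ttf1 (0.44), Lhpp and Nkx1-2 (0.44, 1 shared region) and Fgf8 (0.47). In mouse they were Arhgef19, C630004L07Rik and Rsg1 (0.41, 1 shared region) and D4Wsu53e and Runx3 (0.43, 1 shared region). Pdgfra was the lineage gene closest to Olig2 in rat apart from Olig1, at distance 0.80 and rank 66 of 20108 genes. The myelin gene Mag followed at rank 933, before the regulators Cspg4 (1023) and Sox10 (1835). In mouse, Olig1 ranked 150 and Pdgfra 401 of 23360 genes, and Mag (2261) again lay before Sox10 (4710) and Cspg4 (7331). Nearest to Mog in rat were Spag16 and Vwc2l (0.31, 1 shared region), Rad54l (0.36), Thoc5 (0.36) and Ipcef1 (0.37). In mouse they were Armc2 (0.30), A630007B06Rik and Tdrd1 (0.31, 1 shared region) and Aoc2 and Aoc3 (0.32, 1 shared region).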

How the data were processed

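Cortex chromatin was immunoprecipitated for 4 marks and sequenced, per the labels' protocols; BWA 0.7.12 and the builds rn5 and mm10 are named in the submitters' processing notes. The deposited tables give, per the file headers, mean and highest signal over merged regions and whether an interval was called there (coded 0 or 1, other unit). How libraries were scaled is not given in the sources used here, and the depth is unknown. The letters dm appear in library descriptions without an explanation. A Drosophila spike-in used for scaling is a possible reading, which was not tested. Median centring and quantile normalization remove a change shared by most genes, whether it is real or technical. All value columns matched a sample by name.

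A gene took its region of highest mean signal. limma 3.58.1 (R 4.3.3, mean-dependent prior, robust) was fitted on log2(mean signal + 1), 1 model per mark and species over 9 libraries, for genes with an interval in at least 3 libraries, with Benjamini-Hochberg adjustment over all of them at 0.05. The code was tested on simulated data. The members, lists and filter were chosen with earlier results of these data known. All 10 members were named, and of the other lineage genes up to 3 called per direction with the largest change, otherwise the smallest p. The pooled inputs were not used.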

Additional observations from a re-analysis of the deposited data

Results flagged for a closer look

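At 21 combinations of gene, mark and comparison, every rat library of the exposed group lay on one side of all its controls and every mouse library on the other side of its own. Rat was higher than control and mouse lower in each. The scan took in 10 genes, 4 marks and 3 comparisons. The difference between the species was not tested. The 2 tables were made separately, the exposures differ (valproate in rat, poly I:C in mouse), and the antibody lots were the same in both species for H3K9Ac and H3K9me3 but not for H3K4me3. All values here are the rat log2 change minus the mouse log2 change, as deposited.

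In H3K4me3, vehicle against control, the rat change exceeded the mouse change by 0.83 for Pdgfra, 1.08 for Mag and 0.89 for Cnp. In H3K9Ac, vehicle against control, the rat change exceeded the mouse change by 1.14 for Olig1, 1.17 for Olig2, 1.87 for Sox10, 0.96 for Pdgfra, 1.55 for Cspg4, 1.53 for Mbp, 1.54 for Mag, 1.53 for Mobp and 1.54 for Cnp. In H3K9me3, vehicle against control, the rat change exceeded the mouse change by 0.45 for Mbp. In H3K9Ac, TAK-418 against control, the rat change exceeded the mouse change by 1.17 for Sox10, 1.04 for Cspg4, 1.00 for Mbp, 0.82 for Mog, 0.89 for Mag, 1.08 for Mobp and 0.98 for Cnp. In H3K9me3, TAK-418 against control, the rat change exceeded the mouse change by 0.53 for Mbp. The same separation was counted over all tested genes. In H3K9Ac, 94.3% of rat genes were higher and 75.8% of mouse genes lower without overlap on vehicle, and 51.8% and 75.4% on TAK-418. In H3K4me3 on vehicle these were 63.3% and 58.7%. In H3K9me3 they were 86.0% and 0.263% on vehicle, and 55.0% and 0.12% on TAK-418. The median change of all tested genes, vehicle against control, was 0.88 in rat and -0.56 in mouse for H3K9Ac and 0.41 and -0.49 for H3K4me3. For H3K9me3 it was 0.40 and -0.41. On TAK-418 against control it was 0.36 and -0.53 for H3K9Ac, and 0.36 and -0.22 for H3K9me3. Mbp in mouse H3K9me3 had too few called intervals to be tested. Olig1 and Olig2 share 1 rat region and are not independent.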

How the results depend on the processing

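Counts of members called by limma were the same with a pseudocount of 0.5 and with the region nearest to the gene start. With the region covering the start, chosen after seeing the data, Mog was also called, which made 10 for rat H3K9Ac (vehicle against control) and 9 for rat H3K4me3 (TAK-418 against control), and no other count moved. Median centring gave 0 members called for rat H3K4me3 (TAK-418 against control), 4 for rat H3K9Ac (vehicle against control, now lower), 1 for rat H3K9Ac (TAK-418 against vehicle), 0 for rat H3K9me3 (TAK-418 against control) and 0 for mouse H3K9Ac (vehicle against control). Quantile normalization gave 0 in all 5 of these. The highest signal in place of the mean, chosen after seeing the data, gave 8 for rat H3K9Ac (TAK-418 against vehicle; 72.2% of all tested genes), 0 for rat H3K9me3 (TAK-418 against control) and 0 for mouse H3K9Ac (vehicle against control). Without the interval filter, rat H3K9me3 (TAK-418 against control) gave 0. Leaving out 1 library at a time gave 0 to 8 members for rat H3K4me3 vehicle against control, 2 to 9 for TAK-418 against control, 0 to 9 for rat H3K9Ac TAK-418 against vehicle, 0 to 7 for TAK-418 against control, 0 to 4 for both rat H3K9me3 comparisons with control, 0 to 9 for mouse H3K4me3 vehicle against control, 0 to 10 for mouse H3K9Ac vehicle against control and TAK-418 against control, and 0 to 8 for mouse H3K27me3 TAK-418 against vehicle. With 2 libraries left in a group, the spread is pooled over all groups.

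For changes called as deposited or under the alternative, direction reversed under the rescalings only. Counting uncalled values too, 90 of 183 changes had another sign with median centring, 71 with quantile normalization, 31 with the highest signal, 1 with a pseudocount of 0.5, 1 with the region covering the start, and 1 to 26 with a library left out. With median centring, rat H3K4me3 (TAK-418 against control) was -0.0876 for Olig1 and Olig2, -0.145 for Cspg4 and -0.0047 for Mag; rat H3K9Ac (vehicle against control) was -0.22 for Olig1 and Olig2, -0.18 for Pdgfra and -0.40 for Mog, and Mog was 0.39 for TAK-418 against vehicle; rat H3K9me3 was -0.0932 for Mbp (TAK-418 against control). Mouse H3K9Ac (vehicle against control) was 0.0437 for Olig1, 0.0096 for Olig2 and 0.0788 for Mog. With quantile normalization, rat H3K4me3 was -0.052 for Olig1 and Olig2 and -0.0735 for Cspg4 (TAK-418 against control), rat H3K9Ac was -0.0565 for Olig1 and Olig2 and -0.0238 for Pdgfra (vehicle against control), and mouse H3K9Ac was 0.0298 for Mog. The cause was not tested. Depth is unknown, so limits from counting cannot be given.

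Same-numbered libraries did not deviate together throughout: their deviations correlated between -0.66 and 0.77, and 1 to 5 of 9 pairs per mark and species exceeded 0.1. The median of these correlations ran from -0.18 in rat H3K4me3 to 0.39 in mouse H3K9me3. With deviations taken from means of 3 libraries, this check cannot exclude that the numbers pair the samples. At most 4 of 9 libraries lay closest to their own number. With the replicate number as a block, 8 members were called for rat H3K9Ac (TAK-418 against vehicle), where 67.8% of all tested genes were, 0 for rat H3K9me3 (TAK-418 against control; 3.19%) and 10 for mouse H3K9Ac (TAK-418 against control; 89.6%).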
